A study of Mus musculus with 16 samples.

Results

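The members described here are all 13083 peaks of N6-methyladenosine (m6A) that the authors' deposited peak table lists for mouse bone, which is every peak of that table. They were chosen only as rows of the table, and they carry the names of 6847 genes out of 25239 in the accompanying RNA table. Each peak compares immunoprecipitated (IP) libraries, made from RNA that an anti-m6A antibody had captured, with input libraries, made from the RNA before that capture. The 16 libraries came from bone of wild type mice, with 8 IP and 8 input libraries, and 4 of each kind in the sham-operated arm (titled NC) and in the ovariectomy arm (titled OVX). Ovariectomy, the removal of the ovaries, is a model of bone loss after loss of estrogen. The treatment label reads ovariectomy also for the 4 IP libraries titled NC. The title was followed, and the arms are pooled throughout. The sources used here give no strain, age or time after surgery, and do not say whether each library came from its own animal.

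m6A is a methyl group on internal adenosines of messenger RNA. A writer complex built around Mettl3 and Mettl14 adds it while the RNA is made, and the demethylases Fto and Alkbh5 can remove it. Reader proteins such as Ythdc1 and the Ythdf family bind it and, depending on the reader, alter the splicing, translation or decay of the transcript. In many cell types the mark is known to be rich in long exons and to be sparse near splice junctions and in short housekeeping transcripts.

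The deposited values are 1 per peak for all libraries together, so no value of a single library, no replicate error and no test between libraries could be given. The enrichment is the ratio of IP to input, where 1 means no difference. The log10 p is the authors' own for IP against input, and more negative values are smaller p. The mean count is the authors' mean normalized count of a gene over libraries in their RNA table, which has the column names of DESeq output. Its column name does not say which libraries enter it. It is not scaled by gene length, and in bulk bone fewer cells of a type and less RNA per cell cannot be told apart. The table holds called peaks only, with log10 values of the false discovery rate (FDR) no higher than -1.32, so a gene without a peak is a gene with no call, not one shown to lack m6A. Of 31 markers of bone, marrow, muscle, fat and cartilage cells, 30 had a mean count of at least 50. The exception was the osteoclast receptor gene Calcr at 15.3, and the defining osteoblast genes Col1a1 and Bglap stood at 99868 and 1093.

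Enrichment was modest for most peaks and had a long upper tail. The median was 1.82, with a 5th percentile of 1.26 and a 95th of 2.90. Of all peaks, 4883 (37.3%) reached an enrichment of 2, 524 (4.01%, exact 95% interval 3.68 to 4.36) reached 3 and 56 reached 4, the last in 55 genes. At the other end, 319 peaks in 312 genes lay under 1.2. All intervals in this text are exact binomial ones over peaks or genes and cover counting error only.

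The peaks with the highest enrichment included genes of RNA processing, chromatin and metabolism. Rnaset2b, a lysosomal ribonuclease, stood first in the authors' deposited table with 8.07 over 242 exonic bases in 5 exon blocks (chromosome 17, 6979053 to 6988745, plus strand). It has a near-identical copy, so its value is uncertain. Esf1, a nucleolar protein of ribosomal RNA processing, followed in the authors' deposited table with 7.62 (chromosome 2, 140138992 to 140154868, minus strand, 3 exon blocks). Pgp, a phosphatase that clears toxic side products of glycolysis, had 7.01 over a single block of 100 bases in the authors' deposited table (chromosome 17, 24471615 to 24471714, plus strand). Of these 3 genes, Esf1 had 4 peaks in all and the others had a single one.

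Splicing factors and speckle proteins were also among the 10 highest. Snrnp48, a protein of the minor spliceosome, had 5.66 in the authors' deposited table (chromosome 13, 38216481 to 38221388, plus strand). Srek1ip1, which interacts with a splicing regulator, had 5.59 in the authors' deposited table (chromosome 13, 104832906 to 104833054, plus strand). Nsrp1, a nuclear speckle protein, had 5.38 over one unbroken block of 990 bases in the authors' deposited table (chromosome 11, 77045676 to 77046665, minus strand). The Nsrp1 and Snrnp48 peaks also had the smallest p of the 10, log10 p of -29.9 and -24.9, as the authors' deposited table gives them.

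The other members of the highest 10 were an acetyltransferase subunit, a lymphoid and bone progenitor factor and chromatin proteins. Naa16, an auxiliary subunit of the N-terminal acetyltransferase, had 6.26 in the authors' deposited table (chromosome 14, 79343188 to 79344962, minus strand). Its log10 p was only -3.15 in the authors' deposited table, the weakest of the 10. Pwwp2a, which binds chromatin with the histone variant H2A.Z, had 5.47 in the authors' deposited table (chromosome 11, 43704809 to 43705256, plus strand). Sox4, a transcription factor of B cell precursors and osteoblast progenitors, had 5.43 in the authors' deposited table (chromosome 13, 28951459 to 28951708, minus strand). Phf14, a PHD finger protein of chromatin, had 5.07 in the authors' deposited table (chromosome 6, 11926773 to 11933536, plus strand). Mean counts of these 10 genes ran from 571 for Srek1ip1 to 5896 for Nsrp1. Over all peaks the median was 2668 (quartiles 1141 and 6117), and the 6 most abundant genes with a peak had 142250 and above.

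A small p and a high enrichment picked out different peaks. Nedd8, a ubiquitin-like protein, had the smallest p in the authors' deposited table, a log10 p of -87.0 at an enrichment of 1.70 (chromosome 14, 55662601 to 55671880, minus strand, 4 blocks). Tma7, a translation-associated protein, had -65.2 at 1.97, and Isg20, an interferon-induced exonuclease, had -54.5 at 1.67 in the authors' deposited table. None of the 10 peaks with the smallest p was among the 10 with the highest enrichment. The other names were Lbhd1, Pdap1, Rps6, Mrps9 with 2 peaks, Calm2 and Vars, with enrichments from 1.44 to 2.69 in the authors' deposited table. Over all peaks, enrichment and log10 p had a Spearman's rho of -0.202 (n = 13083 peaks). This and the later rho values describe peaks or genes that share the same libraries, and genes are not independent replicates.

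**Figure D1:**
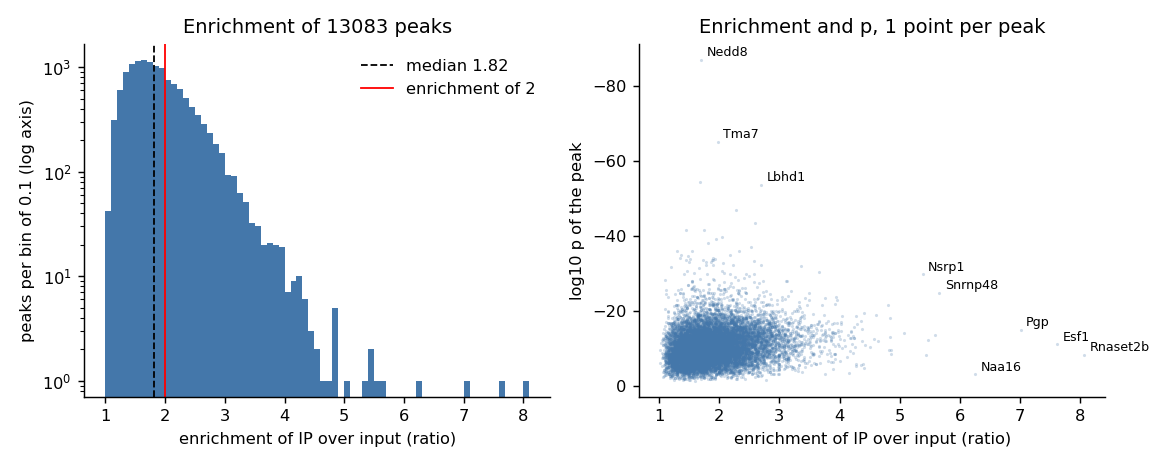
Left, number of peaks per enrichment bin (x, ratio of IP to input; y, peaks on a log axis), with the median of 1.82 and the value 2 marked. Right, enrichment (x) against log10 p (y, smaller p at the top) with 1 point per peak; Nedd8 and Tma7 stand out by p and Rnaset2b, Esf1 and Pgp by enrichment.

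Wider peaks were more enriched. The narrowest peaks, under 103 exonic bases and 4471 in number, had a median enrichment of 1.58 (quartiles 1.38 and 1.85). Those of 203 to 302 bases had 2.05 (quartiles 1.77 and 2.38, n = 2013), and those of 503 to 1002 bases had 2.52 (quartiles 2.21 and 2.86, n = 502). The 50 widest, of 1003 to 2989 bases, had a median of 3.04, and 49 of them reached 2. The quartile ranges of the narrowest class and of the classes above 302 bases did not overlap. Across peaks, enrichment and summed width had a rho of 0.493 (n = 13083), and both were read from the same signal. The mean count moved with width too, from a median of 2134 in the narrowest class to 11216 in the widest, and its part in this relation was not tested.

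The 4 widest peaks were enriched between 2.45 and 4.03. Rbbp6, a ubiquitin ligase that binds the retinoblastoma protein, had a peak of 2989 bases in 2 blocks with an enrichment of 2.95 in the authors' deposited table (chromosome 7, 122998981 to 123002273, plus strand). Apobr, a lipoprotein receptor of macrophages, had a single block of 2150 bases with 2.45 in the authors' deposited table (chromosome 7, 126585415 to 126587564, plus strand). Eif5b, the initiation factor that joins ribosomal subunits, had 2100 bases in 12 blocks with 4.03 in the authors' deposited table (chromosome 1, 37998160 to 38037578, plus strand). Uaca, a coiled-coil protein, had a single block of 1998 bases with 2.62 in the authors' deposited table (chromosome 9, 60869664 to 60871661, plus strand). The blocks are the exon parts of a peak, so in Apobr and Uaca the whole width was 1 stretch of 1 exon.

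At a given width, peaks cut by splice junctions were less enriched than unbroken ones in most classes. A single block held 7831 peaks (59.9%, interval 59.0 to 60.7), 2 blocks held 2946 and 3 or more held 2306. Among peaks of 203 to 302 bases, the median fell from 2.14 with 1 block (n = 1039) to 2.02 with 2 (n = 359) and 1.94 with 3 or more (n = 615). In that class 63.2% of single-block peaks (interval 60.2 to 66.2) and 42.8% of peaks with 3 or more blocks (interval 38.8 to 46.8) reached an enrichment of 2, against the 37.3% of all peaks. Single-block peaks had the highest median in each class up to 502 bases, and above that the medians were 2.64, 2.65 and 2.50. Genes of the peaks with more blocks had higher mean counts, a median of 4509 against 2474 in the class of 203 to 302 bases. Without regard to width, enrichment and block number had a rho of 0.041 (n = 13083). Peaks with 6 to 9 blocks were wide (median 599 bases) and had a median of 2.35.

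The peaks with the most exon blocks ranged widely in enrichment. Trdn, the triadin of the muscle calcium release unit, had 23 blocks within 793 exonic bases at an enrichment of 3.89 in the authors' deposited table (chromosome 10, 33258107 to 33464566, plus strand). Top1, the type I topoisomerase, had 12 blocks at 3.6 in the authors' deposited table (chromosome 2, 160646247 to 160704817, plus strand). The next 5 peaks had 11 blocks each, in Cntrl (centriole), Golga3 (Golgi), Rbm25 (splicing), Ik (splicing) and Col6a2 (collagen VI), and ran from 1.67 in Col6a2 to 3.67 in Cntrl in the authors' deposited table. The whole exons inside peaks of at least 3 blocks were short, with a median of 100 bases (quartiles 72 and 137, n = 4160 blocks).

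**Figure D2:**
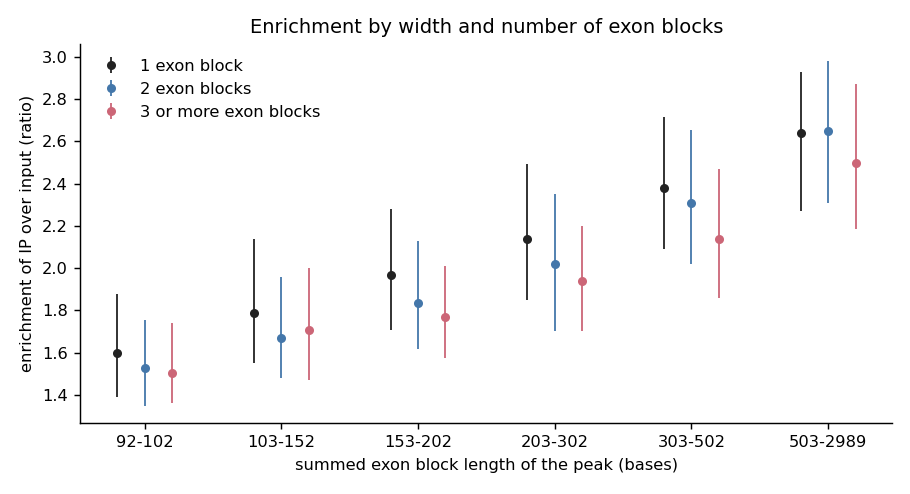
Median enrichment (points) with quartiles (bars) of peaks by summed exon block length (x, bases) and number of exon blocks (colours). The medians climb with width, and single-block peaks lie highest in each class up to 502 bases, for example 2.14 against 1.94 for 3 or more blocks at 203 to 302 bases.

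The mean count of a gene went with whether it had a peak and barely with how enriched its peaks were. Of 13715 genes with a mean count of at least 50, 6781 (49.4%) carried a peak, and 3347 (24.4%) carried a peak of at least 2. The share with a peak was 12.5% for mean counts of 50 to 100 (n = 981 genes), 46.4% for 500 to 1000 (n = 2163) and 74.2% for 5000 to 10000 (n = 1128). Above 10000 it was 73.1% (interval 69.9 to 76.1, n = 836). Median enrichment stayed between 1.72 and 1.84 over the same 8 classes, well inside their quartile ranges. Peaks were more numerous and their p smaller where counts were high: genes with a peak had 1.07 peaks on average at 50 to 100 and 3.05 above 10000, and the median log10 p went from -7.37 to -12.6. Across 6847 genes the mean count had a rho of -0.529 with the smallest log10 p, 0.345 with the number of peaks and 0.140 with the highest enrichment, and across 3686 genes with 1 peak the last was -0.008.

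Genes on the plus strand of the genome carried peaks more often than genes on the minus strand. The strand of 10835 of the 13715 genes could be read from RefSeq, and a peak was listed for 57.6% of the 5480 plus-strand genes (interval 56.3 to 59.0) and for 42.1% of the 5355 minus-strand genes (interval 40.7 to 43.4). Their median mean counts were 1171 and 1120. In percentage points the gap was widest at mean counts of 200 to 500, with 42.8% and 21.9%. It was narrower at 50 to 100, with 18.3% and 6.36%, and above 10000 the shares of 75.2% and 72.8% had overlapping intervals. Plus-strand peaks also had a higher median enrichment, 1.86 against 1.77, and a larger mean width, 221 against 183 bases. Plus-strand peaks were in the majority on all 20 chromosomes, at 53.4% to 67.9%. Strand is given below beside the gene groups whose interval did not include the share of all genes at their median mean count. Members of a group can lie in other classes of mean count than their median. The cause of the strand difference was not tested.

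**Figure D3:**
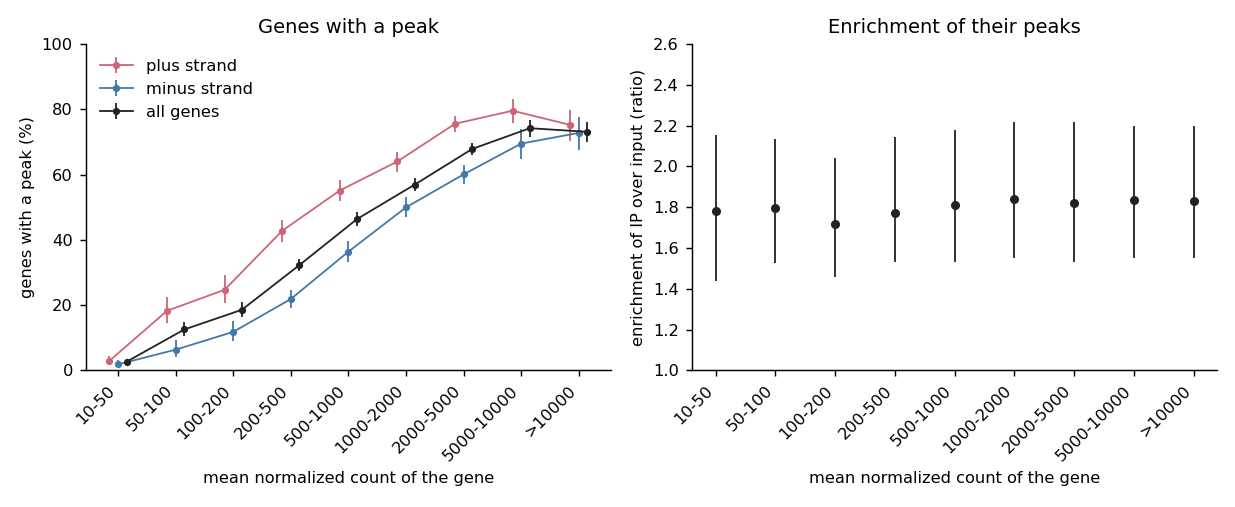
Left, share of genes with a peak (y, percent, bars are exact 95% intervals) by mean normalized count of the gene (x), for all genes and by strand. Right, median enrichment of their peaks with quartiles. The share climbs from 12.5% at 50 to 100 to 74.2% at 5000 to 10000 while median enrichment stays between 1.72 and 1.84.

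The most abundant RNAs were split between genes with and without a call. With a peak, the highest mean counts belonged to Myh4 (fast muscle myosin), S100a9 (neutrophil calcium-binding protein), Mki67 (Ki-67 of dividing cells), Myh9 (non-muscle myosin), Malat1 (a nuclear long noncoding RNA) and Slc4a1 (the red cell anion exchanger), from 336368 down to 142250. Malat1 had 4 peaks between 1.97 and 2.76 and Myh4 had 6 between 1.41 and 2.49 in the authors' deposited table. The log10 p ran from -12.5 to -10.6 in Malat1 but only from -5.19 to -1.93 in Myh4. S100a9 had a single weak peak of 1.24 over 96 bases in the authors' deposited table. Without a peak, the highest were the globin genes Hba-a1, Hbb-b1 and Hbb-b2, the neutrophil granule genes Ltf and Ngp and the lysozyme gene Lyz2, with mean counts from 311988 to 122842. Globin copies are nearly identical, so their reads may not have been assigned uniquely.

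Chromatin regulators all carried peaks, while most ribosomal protein and respiratory chain genes carried none. Transcript length was not taken into account in this or the later group comparisons, and its part was not tested. All 31 chromatin regulators had at least 1 peak (interval 88.8 to 100), with a median of 5 peaks per gene, against 49.4% of all genes and 74.2% of genes in the class of 5000 to 10000 that holds their median mean count of 7962. Kdm5a, a histone demethylase, had the highest, 3.97, followed in the authors' deposited table by the remodeller Chd3 with 3.46, the DNA dioxygenase Tet3 with 3.30 and the methyltransferase Setd2 with 3.27. This Tet3 peak had a log10 p of only -3.99, where the 95th percentile of all peaks was -4.59. The other peak of Tet3 had 1.02, the lowest of all 13083 along with 1 in Ttn in the authors' deposited table. Both were picked after their values were seen. Of the 21 chromatin regulators with a known strand, 9 were on the plus strand. This list, like the others, was chosen with earlier results of these data known, so its share describes the chosen members only.

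Cytosolic ribosomal protein genes carried a peak in 16 of 80 (20.0%, interval 11.9 to 30.4), although their median mean count of 15021 lay in the class where 73.1% of genes had a peak. Rpl5 with 2.63, Rps6 with 2.6, Rpl14 with 2.50 and Rpl4 with 2.31 had the highest peaks in the authors' deposited table. Rpl13a and Rplp2, with mean counts of 106926 and 75351, had none. Of the ribosomal genes with a known strand, 38 of 59 were on the plus strand, and many have pseudogene copies that can share reads. Genes picked by respiratory chain prefixes, which also take assembly factors, carried a peak in 13 of 98 (13.3%, interval 7.26 to 21.6) at a median mean count of 2189, where 67.9% of all genes had one. Their highest peak, 3.15 in the authors' deposited table, was in the assembly factor Ndufaf4, then came Ndufv3 with 2.14, Cycs (cytochrome c) with 2.05 and the assembly factor Ndufaf2 with 2.01. The ATP synthase genes Atp5b and Atp5a1, the most abundant of these genes without a peak, had mean counts of 36497 and 30097. On the plus strand were 24 of 80 with a known strand.

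Zfp genes, which encode zinc finger proteins, carried peaks more often than all genes of similar mean count. Of 308 with a mean count of at least 50, 187 (60.7%, interval 55.0 to 66.2) had a peak at a median mean count of 422, where 32.3% of all genes had one. Zfp830 had 4.19, Zfp809 3.93, Zfp292 3.89 and Zfp808 3.82 in the authors' deposited table, each over 1 block of 248 to 746 bases. The Zfp292 peak had a log10 p of only -4.57. Zfp335 and Zfp598 were the most abundant without a peak. Of the 257 with a known strand, 129 were on the plus strand.

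Genes of the m6A machinery carried peaks in part. Of 11 writer genes 7 carried a peak (63.6%, interval 30.8 to 89.1), and the interval includes the 49.4% of all genes and the 56.9% of their class. The adaptor Rbm15 had 3.78 over 100 bases in the authors' deposited table (chromosome 3, 107333091 to 107333190, minus strand), and the scaffold Zc3h13 had 9 peaks with a highest of 2.87. Rbm15b with 2.23 and Virma with 2.22, both of the same complex, came next in the authors' deposited table. Mettl3, the catalytic subunit, had no peak at a mean count of 1353, while its partner Mettl14 had 2 with a highest of 1.78. Of 13 reader and eraser genes 9 carried a peak (69.2%), against 67.9% of all genes in their class. The readers Ythdc1 with 2.61, Hnrnpc with 2.45, Ythdf3 with 2.35 and Fmr1 with 2.27 led in the authors' deposited table. Neither demethylase had a peak, with mean counts of 5102 for Alkbh5 and 2967 for Fto.

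Osteoblast, osteocyte and osteoclast genes had shares with overlapping intervals. Of 20 osteoblast and matrix genes 11 carried a peak (55.0%, interval 31.5 to 76.9), where 49.4% of all genes and 67.9% of those in the class of their median mean count had one. Pth1r, the receptor of parathyroid hormone, had 4.18 over 100 bases in the authors' deposited table (chromosome 9, 110722184 to 110722283, minus strand), one of the 56 peaks of at least 4. The transcription factor Atf4 with 2.93 and the phosphate-regulating peptidase Phex with 2.81 followed in the authors' deposited table, and Runx2, the master factor of the lineage, had 1.56. Col1a1 and Col1a2, the chains of type I collagen, had no peak at mean counts of 99868 and 99263, and neither had Sparc, Alpl, Bglap or Bglap2. Among 9 osteocyte genes 5 carried a peak (55.6%, interval 21.2 to 86.3), against 46.4% of all genes in their class. Of these, Phex, Mepe at 2.48, Dmp1 with 5 peaks up to 2.17 and Irx5 at 1.82 led in the authors' deposited table. Sost, the Wnt inhibitor of osteocytes, had none at a mean count of 2792, nor had Fbln7 at 538.

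Of 19 osteoclast genes only 5 carried a peak (26.3%, interval 9.15 to 51.2). They were the signalling adaptor Traf6 with 2.80, the transcription factors Jdp2 with 2.31 and Nfatc1 with 2.11, the integrin Itgb3 with 1.69 and the protease Mmp9 with 1.59 in the authors' deposited table. The resorption enzymes Ctsk and Acp5 had no peak at mean counts of 12681 and 7137, and the receptor Csf1r and the proton pump subunit Tcirg1 had none either. The interval includes the 49.4% of all genes and lies below the 67.9% of genes in the class of the group's median mean count of 2401. That class does not stand for every member, as mean counts ran from 97.6 for Oscar to 23119 for Itgb3. In the class of 50 to 100 that holds Oscar, only 12.5% of all genes had a peak. Of the 11 osteoclast genes with a known strand, 8 were on the plus strand.

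Among Wnt, BMP and TGF-beta genes 17 of 34 carried a peak (50%), close to the 49.4% of all genes and the 46.4% of their class of mean counts. Apc, which drives beta-catenin decay, had 11 peaks with a highest of 3.56 in the authors' deposited table, and the SMAD repressor Skil had 3.06. Axin1 with 2.87 and Axin2 with 2.75, scaffolds of the same decay complex, followed in the authors' deposited table. Ctnnb1, beta-catenin itself, and Tgfbr2, a TGF-beta receptor, had none at mean counts of 12435 and 5238. SOCS and immediate early genes, which encode short-lived regulators, carried a peak in 13 of 23 (56.5%), against 56.9% of all genes in their class. They were led by Egr1 with 2.92, Jun with 2.80, Myc with 2.44 and Klf4 with 2.42 in the authors' deposited table. Junb and Ier2 were the most abundant of them without one.

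Marrow lineages ranged from 29.4% of neutrophil genes to 75% of B lineage genes with a peak. Of 20 B lineage genes 15 carried a peak (75%, interval 50.9 to 91.3), and the interval includes the 67.9% of all genes at their median mean count of 2766. They were led by the interleukin-7 receptor Il7r with 3.31, the surface glycoprotein Cd24a with 2.97, the recombinase subunit Rag2 with 2.54 and the repressor Bach2 with 2.48 in the authors' deposited table. The adaptor Blnk had none at a mean count of 1717. Of 17 neutrophil genes 5 carried a peak (29.4%, interval 10.3 to 56.0) at a median mean count of 23304, where 73.1% of all genes had one, and the interval includes the 49.4% of all expressed genes. Those with the highest values were the transcription factor Cebpe with 2.45, the chemokine receptor Cxcr2 with 2.20, the integrin Itgam with 1.75 and the collagenase Mmp8 with 1.56 in the authors' deposited table. The granule genes Elane, Mpo, Ltf, Camp and Ngp had no peak, and 11 of the 16 neutrophil genes with a known strand were on the plus strand.

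Of 17 erythroid genes 7 carried a peak (41.2%, interval 18.4 to 67.1). The interval includes the 49.4% of all genes and lies below the 74.2% of genes at their median mean count of 9192, and 7 of 13 with a known strand were on the plus strand. The median over their 28 peaks was 1.55 (quartiles 1.44 and 1.77), the lowest of the 16 lists. The membrane skeleton gene Ank1 had 3.14, the transcription factors Klf1 and Tal1 had 2.23 and 2.19, and Sptb, a spectrin, had 2.01 in the authors' deposited table. Hba-a1 and the heme synthesis gene Alas2 had none. Skeletal muscle genes carried a peak in 12 of 21 (57.1%), with 86 peaks in all, and the interval of 34 to 78.2 includes the 73.1% of all genes in their class. Xirp2, an actin-binding protein of the sarcomere, had 4.41, followed in the authors' deposited table by Myh2 with 2.88, Ttn with 2.80 and Neb with 2.75, all proteins of the contractile filaments. The Xirp2 peak had a log10 p of only -4.93. Tnni2 and Atp2a1 were the most abundant muscle genes without a peak, at 82939 and 81394. Of 28 mitosis and proliferation genes 20 carried a peak (71.4%, interval 51.3 to 86.8), near the 74.2% of all genes in their class. The median over their 87 peaks was 2.04. Kif20b with 3.7, Cenpe with 3.24, Knl1 with 3 and Aspm with 2.98, large proteins of the spindle and kinetochore, led in the authors' deposited table, and Pcna and Mcm5 of DNA replication had none.

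**Figure D4:**
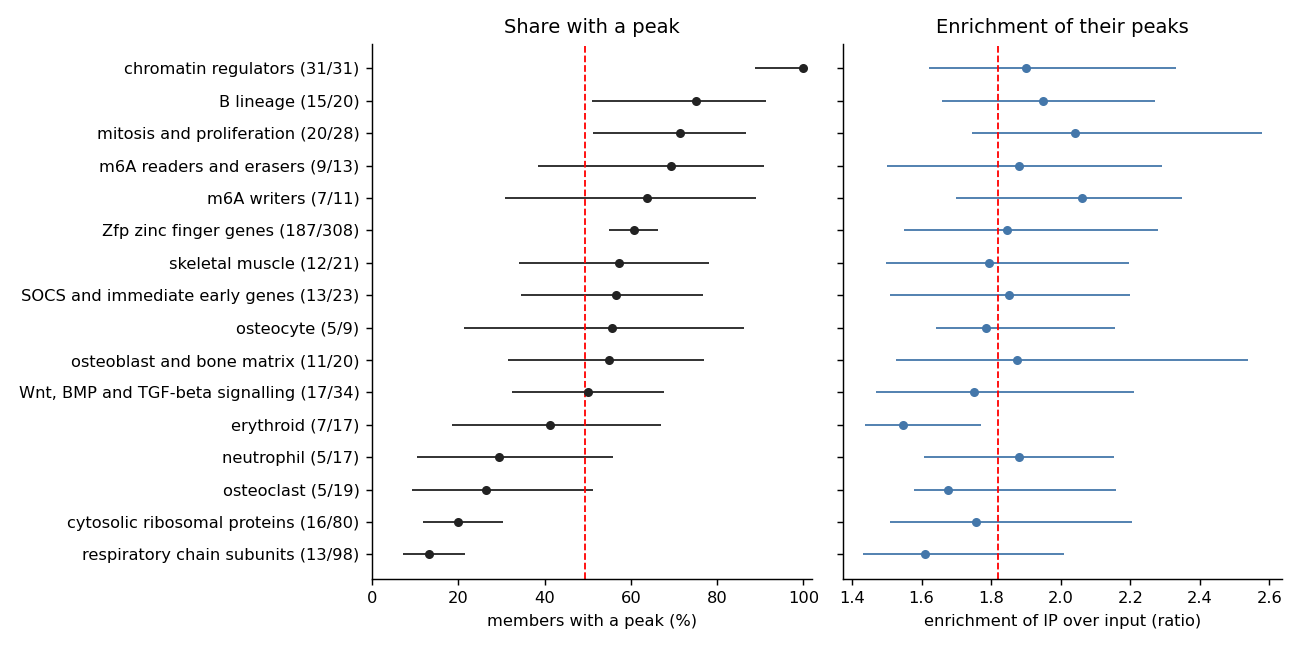
Left, share of expressed members of each gene list with a peak (x, percent, bars are exact 95% intervals, counts in the labels), with the 49.4% of all genes as a dashed line. Right, median enrichment over the peaks of each list with quartiles, and 1.82 for all genes dashed; the chromatin list reaches 31 of 31 and the respiratory list 13 of 98.

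Enrichment varied more between peaks of the same gene than between genes. In the 3161 genes with more than 1 peak, the SD of log2 enrichment was 0.35 within genes and 0.13 between genes, so 11.3% of the variance lay between genes. The SD within genes includes the measurement error of single peaks, which cannot be separated without values per library. The highest peak of a gene was a median of 1.40 times its lowest (quartiles 1.2 and 1.7), and the ratio was largest, 4.46, in Esf1. Genes with 1 peak had a median enrichment of 1.77 and the 157 genes with 6 to 9 peaks had 1.92 over their peaks. The 30 genes with 10 to 35 peaks had 1.86. The median mean counts of these groups were 1299, 6610 and 15653, in the same order.

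In genes with 2 or 3 peaks, the first and the last called peak were the highest about equally often. In 1697 genes with 2 peaks, the peak nearer the 5′ end was the higher in 849 and the other in 848. Here and below, any tie was counted for the peak nearer the 5′ end. In 748 genes with 3 peaks the highest was the first in 35.3% (interval 31.9 to 38.8), the middle in 30.7% and the last in 254 of the 748. Order was read from the strand and position in the peak table. Where peaks lie relative to coding sequence or to the ends of the transcript was not analysed here.

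The 6 genes with the most peaks showed no common order along the transcript. Ttn, the giant spring of the sarcomere, had 35 peaks from 1.02 to 2.80 in the authors' deposited table. Its 4 highest were the 10th, 6th, 17th and 9th from the 5′ end, and the last 4 ran from 1.02 to 1.45. Syne1, which links the nucleus to the cytoskeleton, had 19 peaks with a median of 1.56, and its last peak alone reached 3.46 in the authors' deposited table. In Mki67 the 18 peaks ran from 1.33 to 2.69, with the 4th and the last the highest, in the authors' deposited table. Dst, a cytoskeletal linker, had 17 peaks up to 2.43, Cenpf of the kinetochore 16 up to 2.97, and Ahnak, a giant scaffold protein, 15 up to 2.51 in the authors' deposited table. Their summed peak widths ran from 3715 exonic bases in Syne1 to 7232 in Ttn.

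**Figure D5:**
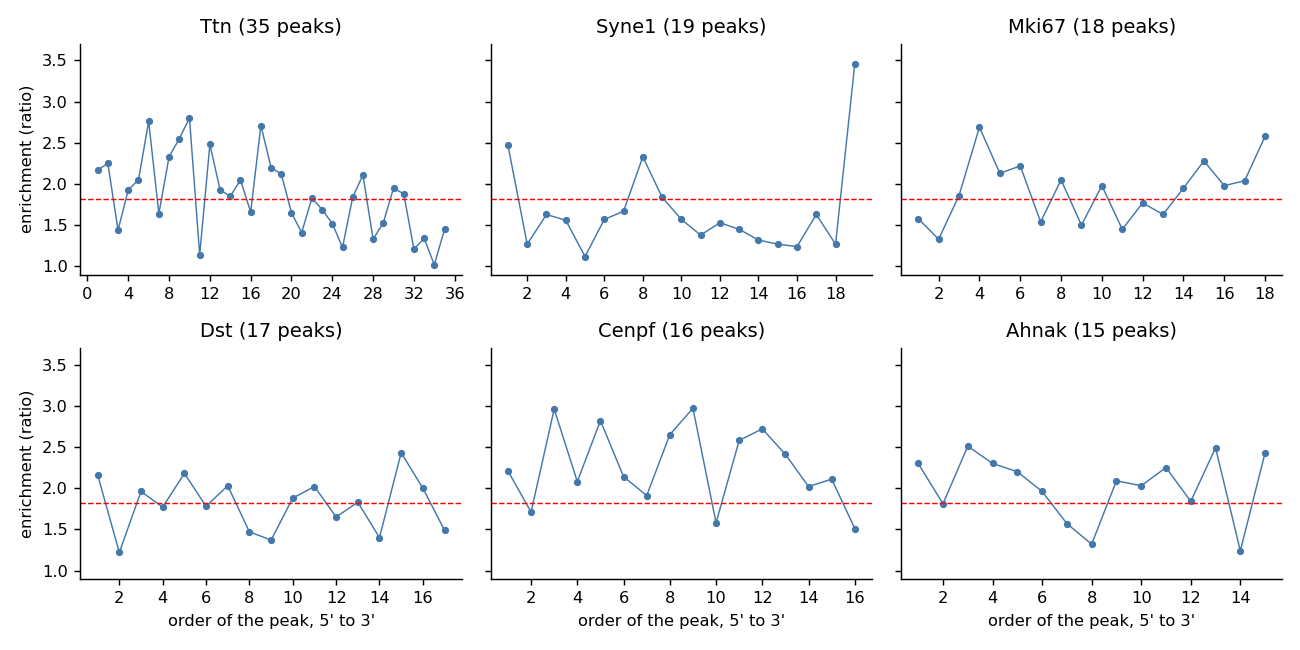
Enrichment (y, ratio of IP to input) of each peak in the 6 genes with the most peaks, in order from the 5′ to the 3′ end (x); the dashed line is the median of all peaks, 1.82. Syne1 ends in its highest peak of 3.46, while the last 4 peaks of Ttn lie between 1.02 and 1.45.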

How the data were processed

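Messenger RNA and m6A IP libraries of mouse bone were compared by the authors. Both tables used here hold their comparisons, with no value of a single library. Per the file headers, each peak has a p-value, log10 p and log10 FDR, a fold enrichment (ratio of IP to input) and exon blocks, all deposited by the authors. The RNA table has a mean normalized count per gene (a signal over libraries), as the authors deposited it, with DESeq column names. HISAT2, StringTie, DESeq and a rat genome build, rn6, appear in the submitters' processing notes, without roles. No source used here gives the peak caller or says whether replicates were pooled. Of 13026 peaks with a symbol in GRCm38.p6, 13000 (99.8%) lay inside the gene of that name, so coordinates are read as that build, counted from 1. All 10464 peaks whose gene had a strand in the RefSeq promoter table of GRCm38.p6 had the same strand.

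Depth per library is unknown. Block lengths were summed, and medians, shares and Spearman's rho were computed with numpy 2.4.6, pandas 2.3.3 and scipy 1.17.1 on Python 3.11.15, after tests on simulated data. The planned count model, replicate block, left-out libraries, motif search and codon positions could not be run, because no per-library values and no genome were used here. Genes with a mean count of at least 50 were counted as expressed. Named were the 10 peaks with the highest enrichment and the 10 with the smallest p, the 4 widest and the 4 with most blocks with ties, the 6 genes with most peaks, the 6 highest mean counts with and without a peak, and per list up to 4 members with the highest enrichment and 2 without a peak. Some members that this rule names are not reported here. Further list members were chosen after their values were seen. Members and the 16 lists were chosen with earlier results of these data known.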

Additional observations from a re-analysis of the deposited data

How the results depend on the processing

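With no value per library, leaving out replicates could not be run. No paired analysis was possible because the tables hold 1 value per peak over all libraries. The median enrichment of 1.82 became 1.98 with the highest peak of each gene, 1.84 at a log10 FDR of -5 or lower and 2.11 for peaks of at least 200 bases. The share reaching 2 (37.3%) was 78.8% at a limit of 1.5, 4.01% at 3 and 38.4% at the stricter FDR. Peaks in at least 2 blocks (40.1%) were 42.2% at the stricter FDR and 38.7% among those reaching 2, whose median width was 245 bases. Expressed genes with a peak (49.4%) were 43.7%, 52.3% and 61.2% at mean counts of at least 10, 100 and 500, 27.1% with no filter and 24.4% when the peak had to reach 2. The rho of 0.140 between highest enrichment and mean count across genes became 0.0136 with the median peak and -0.0077 in genes with 1 peak. Chosen after seeing the data, strand and higher count limits kept the shares with a peak of ribosomal protein and respiratory genes within their intervals. They were 14.3% to 21.1% for ribosomal proteins and 13.3% to 16.7% for respiratory genes. For chromatin regulators these settings could not change the 100%, as all 31 members carried a peak. The count limits of 500 and 2000 also lay below their lowest mean count, 2472 in Tet2. All of these settings drew on the same list members. Depth per library is unknown, and genes with low mean counts had the fewest calls.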

Other observations

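A few peaks were listed under more than 1 name. Of all peaks, 14 formed 7 pairs with identical coordinates and enrichment under different gene names. Fam177a and Fam177a2 shared 3 peaks, among them one of 2.92, and Ear3 and Ear12, eosinophil-associated ribonucleases, shared one of 2.44. Ergic2 on the minus strand and Far2 on the plus strand shared a peak of 2.30 (chromosome 6, 148181409 to 148181609), listed once on each strand. Read assignment between such genes is uncertain. These genes were chosen after their values were seen.

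Peaks were also listed in 14 genes with a mean count under 10, with enrichments from 1.23 to 2.69, and 4 of these genes had a mean count of 0. Lbhd1 had a mean count of 5.53 beside a log10 p of -53.8 (chromosome 19, 8890099 to 8890709). Clvs1, Nox1 and Mmp24 had mean counts of 1.83, 0.902 and 1.52 beside log10 p values of -15.8, -16.5 and -14.0. Neighbouring peaks of the same gene had an identical log10 p in 1728 of 6236 pairs (27.7%), as in the 2 peaks of Mrps9, both at -41.8 with enrichments of 1.44 and 1.75.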
